A study of Mus musculus with 6 samples.

Results

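Scavenger receptors and receptors for apoptotic cells were followed here as 10 genes, Msr1, Marco, Olr1, Scarb1, Scarf1, Cd163, Stab1, Mertk, Axl and Timd4, out of 22180 genes on the array. They were taken by name, as rows of the deposited table annotated with that 1 gene symbol, and each of the 10 had 1 such row, called a probe set. Mouse monocytes sorted by flow cytometry gave 6 RNA samples, 3 from spleen and 3 from tumor, each hybridised to 1 Mouse Gene 2.0 ST array. All the mice had received Th9 cells, a helper T cell type, 10 days earlier, so no untreated group stands beside them, and the cells were gated as inflammatory monocytes, that is CD11b+, CD11c- and Ly6C high. The strain field of both groups reads Th9; mouse background, age, tumor type and the number of mice behind a sample were not given in the sources used here. Whether samples of 1 tissue were taken from different mice is unknown too, and the p-values therefore reflect only how far these samples differ, which may be technical variation.

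Scavenger receptors are a mixed set of cell surface proteins that bind modified lipoproteins, microbial surfaces, damaged proteins and dying cells, and carry them into the cell. Apoptotic cells show phosphatidylserine on their surface, which Timd4 binds directly. The TAM kinases Mertk and Axl bind it through bridging proteins, Gas6 and protein S for Mertk and Gas6 for Axl. Both kinases signal inside the cell to dampen inflammation. Monocytes that settle in tissue commonly gain several of these receptors as they turn into macrophages.

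The upstream sequences of 3 of the genes are shown as description: Olr1, with the largest difference among the genes for which a sequence was at hand, and the related kinases Axl and Mertk, of which Axl had separate groups and Mertk had not. A link between these sequences and the levels was not tested. The 250 bases before the annotated start are printed from RefSeq (GRCm38.p6), at chr6:129507166-129507415 on the minus strand for Olr1, chr7:25788734-25788983 on the minus strand for Axl and chr2:128698665-128698914 on the plus strand for Mertk. Capitals mark every match to the motifs searched.
Olr1: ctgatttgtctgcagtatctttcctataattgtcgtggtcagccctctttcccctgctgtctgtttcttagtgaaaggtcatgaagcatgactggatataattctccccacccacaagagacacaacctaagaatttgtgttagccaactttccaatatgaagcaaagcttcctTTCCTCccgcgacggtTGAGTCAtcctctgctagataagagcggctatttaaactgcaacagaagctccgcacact
Axl: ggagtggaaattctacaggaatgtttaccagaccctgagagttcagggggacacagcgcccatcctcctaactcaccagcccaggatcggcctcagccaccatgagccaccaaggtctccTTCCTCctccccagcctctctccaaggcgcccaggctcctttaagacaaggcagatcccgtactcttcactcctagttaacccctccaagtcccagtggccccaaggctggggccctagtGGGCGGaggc
Mertk: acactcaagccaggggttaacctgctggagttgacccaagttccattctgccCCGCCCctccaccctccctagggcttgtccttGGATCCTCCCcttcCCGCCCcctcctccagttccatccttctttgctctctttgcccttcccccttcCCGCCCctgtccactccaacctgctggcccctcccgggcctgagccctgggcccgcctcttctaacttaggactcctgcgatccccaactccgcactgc

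The search covered both strands of the 300 bases from 250 before to 50 after the start, for 7 of the 10 genes (Marco, Olr1, Cd163, Stab1, Mertk, Axl and Timd4). The Olr1 window held 1 AP-1 motif (TGANTCA, in 7.81% of 32851 such windows), 60 bases before the start, and next to it 1 PU.1 core (GAGGAA, in 28.3% of windows), 76 bases before the start. PU.1 is a transcription factor of the myeloid lineage, and its core also lay in the windows of Axl, Marco and Stab1. The GC box (GGGCGG, in 35.7% of windows) was in those of Axl, with 2 copies, and Mertk, with 4, of which 1 each lay after the start and is not printed. A loose NF-kB motif (GGGA, any 3 bases, TCC; 4.59%) was found for Mertk and Cd163. The stricter NF-kB form (GGGA, any base, TTTCC; 0.411% of windows), the interferon-stimulated response element (GAAA, any 2 bases, GAAA; 3.44%), the gamma-activated site TTCNNNGAA (8.30%), the E-box CACGTG (7.15%) and TATAAA (13.6%) had no match in the 7 windows. The loose NF-kB form contains the strict one, and a match of these letters is a description of sequence and not a binding site.

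Levels are given as array intensity and as log2(intensity + 1), and differences are tumor minus spleen on the log2(intensity + 1) scale, ± SE, which understates changes of dim genes. Tests were limma fits over the 18458 genes above the 25th percentile of their array on at least 3 arrays, and a gene was called at a Benjamini-Hochberg adjusted p under 0.05. All 10 receptor genes passed this filter, on 6 of 6 arrays each. The number of arrays limits the precision. The arrays numbered 3 stood apart in both groups, with a median shift of 0.29 in spleen and 0.28 in tumor against numbers 1 and 2 over all genes tested. For this reason results are also given with the array number as a block where that changes a receptor's call or moves a list's count by over 1.5 times, and for some lists besides. In sorted bulk samples, fewer cells of a type and less RNA per cell cannot be told apart.

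Among the 10 genes Scarf1 and Msr1 rose and Scarb1 fell on the tumor arrays, and the other 7 were not called. That is 3 of 10 called, beside 10.6% of all genes tested (5.73% higher and 4.85% lower). The 10 genes were chosen with earlier results of these data known, so the shares here are a description and not a test. With the replicate block the called genes were 5 higher (Msr1, Scarf1, Olr1, Axl and Timd4) and 1 lower (Scarb1), which is 6 of 10 beside 29.0% of all genes tested (11.7% higher, 17.3% lower). On the arrays numbered 1 and 2 alone the calls were Msr1, Scarf1 and Scarb1, beside 1390 genes higher and 1552 lower of 18458 tested. In the group-only fit of 6 arrays the latter counts were 1057 and 896. The median difference of the 10 genes was 0.29, against -0.050 over all genes tested. Tumor and spleen values did not overlap for 5 of the 10 genes, where 25.4% of all genes tested had separate groups; tumor was the higher group for Msr1, Olr1, Scarf1 and Axl, as for 9.81% of all genes tested.

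**Figure D1:**
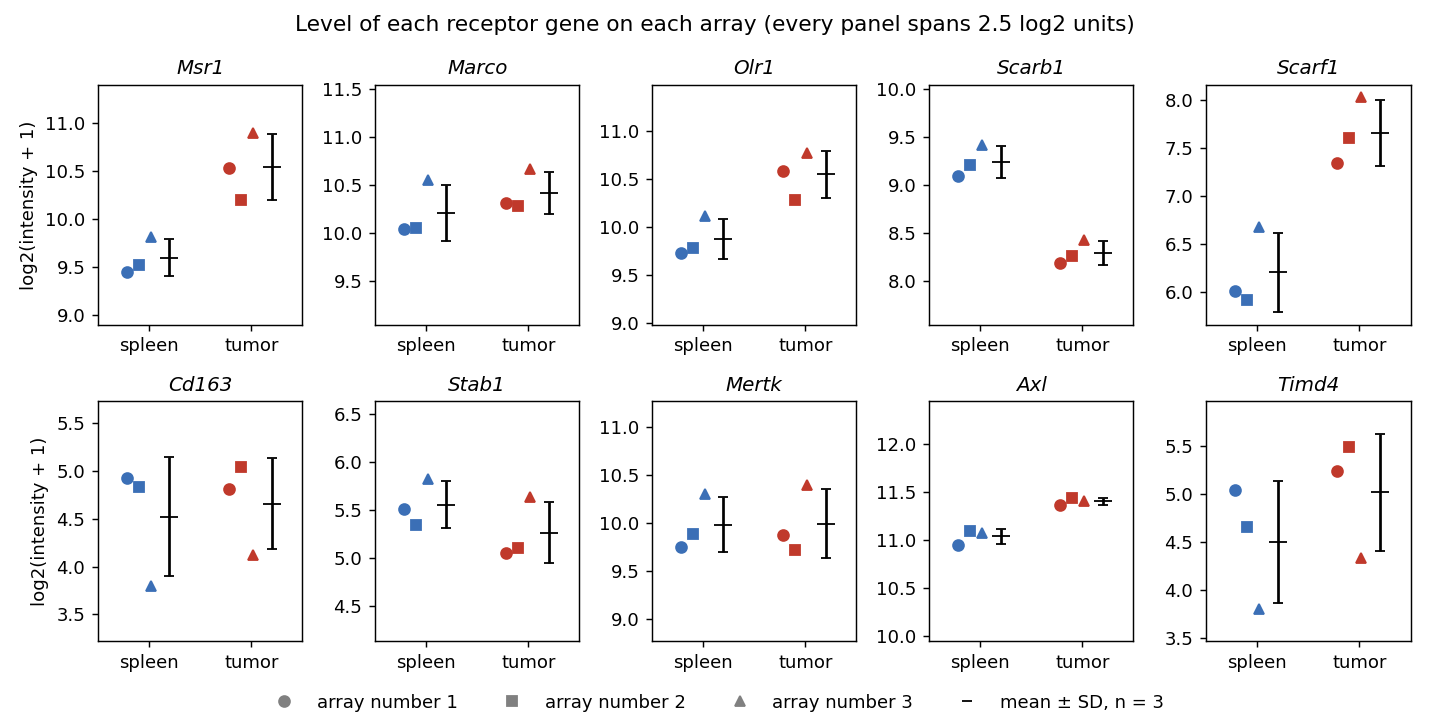
Each panel plots log2(intensity + 1) of 1 receptor gene on the 3 spleen (blue) and 3 tumor (red) arrays, with marker shapes for the array number and a bar for the mean ± SD of 3 arrays. Every panel spans the same range on its vertical axis. The groups are separate for Msr1, Olr1, Scarb1, Scarf1 and Axl, and arrays numbered 3 are lowest for Cd163 and Timd4 in both tissues.

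Scarf1, a class F scavenger receptor that binds modified lipoproteins and complement-coated dying cells, had the largest difference of the 10. Its intensity was 63.5, 59.6 and 102 on spleen arrays 1 to 3 and 162, 194 and 260.4 on tumor arrays 1 to 3. The lowest tumor array lay above the highest spleen array, and number 3 was the highest in both groups. The mean log2 level was 6.21 ± 0.42 (SD, n = 3) in spleen and 7.66 ± 0.34 in tumor, a rise of 1.46 ± 0.25 or 2.74-fold (limma adjusted p = 0.00758; 95% interval 0.88 to 2.03). Between arrays of equal number the difference was 1.34, 1.68 and 1.35. Leaving out any 1 array kept Scarf1 called, at adjusted p from 0.00248 to 0.0357.

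Msr1 encodes the class A scavenger receptor SR-A, which takes up modified low-density lipoprotein, bacteria and dying cells. Intensities of Msr1 were 695, 735 and 897 in spleen and 1484, 1176 and 1902 in tumor, with no overlap and with tumor array 2 nearest to the spleen range. The level went from 9.59 ± 0.19 to 10.54 ± 0.35, a rise of 0.95 ± 0.21 or 1.93-fold (limma adjusted p = 0.0212; 95% interval 0.48 to 1.42). The call was lost without spleen 1 (adjusted p = 0.0862), without spleen 2 (adjusted p = 0.0887) and without tumor 1 (adjusted p = 0.0884), where the difference was 0.88, 0.92 and 0.95.

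Marco, the other class A receptor, which binds bacteria and unopsonized particles, had intensities of 1048, 1057 and 1493 in spleen and 1264, 1239 and 1621 in tumor. Its groups overlapped, because spleen 3 exceeded tumor 1 and tumor 2. The Marco difference was 0.21 ± 0.19 (limma adjusted p = 0.695), with a 95% interval of -0.24 to 0.65. Each tumor array was above the spleen array of its own number, by 0.27, 0.23 and 0.12, and the block gave an adjusted p = 0.145. The log2 ratio of Msr1 to Marco within an array was -0.59, -0.52 and -0.73 in spleen and 0.23, -0.076 and 0.23 in tumor. The ratio was thus 0.74 higher in tumor, with separate groups, at an exact two-sided permutation p = 0.1, the smallest that 3 against 3 arrays can give.

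Olr1 encodes LOX-1, a lectin-like receptor for oxidized low-density lipoprotein. Its intensities of 848, 878 and 1107 in spleen and 1534, 1244 and 1747 in tumor did not overlap. The level was 9.87 ± 0.21 in spleen and 10.55 ± 0.25 in tumor, and the difference of 0.67 ± 0.18 narrowly missed the threshold (limma adjusted p = 0.0546; 95% interval 0.25 to 1.09). Olr1 passed it with the replicate block (adjusted p = 0.00249), with quantile normalization (adjusted p = 0.00929), with median centring (adjusted p = 0.00876) and without spleen 3 (adjusted p = 0.0331). It also passed with a pseudocount of 16, the 50th percentile filter and the trended prior, at adjusted p from 0.0415 to 0.0457. Olr1 was not called when any 1 of the other arrays was left out (adjusted p from 0.0516 to 0.197). Nor was it called on the arrays numbered 1 and 2 (adjusted p = 0.0511), without the filter (adjusted p = 0.0600) or with averaged probe sets (adjusted p = 0.0569). Differences between arrays of equal number were 0.85, 0.50 and 0.66.

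Scarb1, or SR-BI, the receptor through which cells exchange cholesterol with high-density lipoprotein, went the other way. Scarb1 had intensities of 546, 590.0 and 686 in spleen and 291, 307 and 345 in tumor, so that the highest tumor array was well below the lowest spleen array. Its level of 9.24 ± 0.17 in spleen and 8.30 ± 0.13 in tumor made a difference of -0.95 ± 0.15, 1.93-fold lower in tumor (limma adjusted p = 0.00587; 95% interval -1.30 to -0.59). The difference varied little between array numbers, at -0.91, -0.94 and -0.99, and the call held with each array left out (adjusted p from 0.00851 to 0.0403). Within an array the log2 ratio of Scarf1 to Scarb1 was -3.08, -3.28 and -2.74 in spleen and -0.84, -0.66 and -0.40 in tumor, 2.40 higher in tumor. The ratio of Olr1 to Scarb1 was 1.62 higher in tumor, again with separate groups. Both ratios had an exact two-sided permutation p = 0.1, the smallest possible here. That outcome was fixed by the separate groups of the single genes, higher in tumor for Scarf1 and Olr1 and lower for Scarb1. These tests therefore add nothing to the levels. The ratios were chosen after the levels of these genes had been seen, and 4 were computed.

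Cd163, which takes up haemoglobin bound to haptoglobin, and Stab1, a class H receptor of tissue macrophages and sinusoidal endothelium that clears matrix fragments and binds phosphatidylserine, were not called. Cd163 intensities were 29.3, 27.4 and 12.9 in spleen and 27.0, 31.9 and 16.4 in tumor, above the median of all probe sets on 4 of 6 arrays and below it on both arrays numbered 3. Its difference of 0.14 ± 0.34 (limma adjusted p = 0.929; 95% interval -0.64 to 0.92) was smaller than the drop from numbers 1 and 2 to number 3, which was -1.07 in spleen and -0.80 in tumor. Stab1 had 44.6, 39.4 and 55.4 in spleen and 32.2, 33.3 and 48.5 in tumor, with overlapping groups. The Stab1 difference was -0.29 ± 0.21 (adjusted p = 0.534; 95% interval -0.77 to 0.18), or adjusted p = 0.0634 with the replicate block, and each tumor array was below the spleen array of its number.

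Of the phosphatidylserine receptors, none was called in the group-only fit; Axl had separate groups, and Mertk and Timd4 had not. Axl, the TAM kinase that Gas6 activates, had intensities of 1970, 2175 and 2157 in spleen and 2630, 2773 and 2716 in tumor, a narrow spread in each group with no overlap. Its level was 11.04 ± 0.08 in spleen and 11.40 ± 0.04 in tumor. The Axl difference of 0.37 ± 0.14 was not called (limma adjusted p = 0.147; 95% interval 0.06 to 0.68), and was called with the replicate block (adjusted p = 0.0196) and with a pseudocount of 16 (adjusted p = 0.0444). The SD of both Axl groups was under the SE that limma gave the difference, since limma draws each gene's spread toward that of all genes.

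Mertk, the TAM kinase that macrophages use to engulf apoptotic cells, had intensities of 860.2, 943 and 1264 in spleen and 936, 837 and 1344 in tumor. The 2 ranges cover each other almost fully, and number 3 was highest in both. The Mertk difference was 0.013 ± 0.23 (limma adjusted p = 0.991; adjusted p = 0.947 with the replicate block), and the 95% interval of -0.50 to 0.53 leaves room for a change of either sign. The ratio of Axl to Mertk was 1.19, 1.20 and 0.77 in spleen and 1.49, 1.73 and 1.01 in tumor on the log2 scale. These ratios overlapped, and their difference of 0.35 had an exact two-sided permutation p = 0.3.

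Timd4, or TIM-4, a phosphatidylserine receptor of resident macrophages, had intensities of 31.9, 24.3 and 13.0 in spleen and 36.8, 43.9 and 19.2 in tumor, above the array median on 4 of 6 arrays. Both arrays numbered 3 lay below the other arrays of their group, by 1.05 in spleen and 1.03 in tumor, so the groups overlapped. The Timd4 difference was 0.52 ± 0.37 (limma adjusted p = 0.548; 95% interval -0.34 to 1.38). With the replicate block it was called (adjusted p = 0.0215), on differences of 0.20, 0.83 and 0.53 between arrays of equal number. Cd163 and Timd4 were the 2 of the 10 genes that were lower on number 3 in both tissues. Axl hardly moved with the array number (0.060 in spleen and 0.0079 in tumor), and the other 7 genes were higher on number 3 in both tissues, by 0.21 to 0.72.

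**Figure D2:**
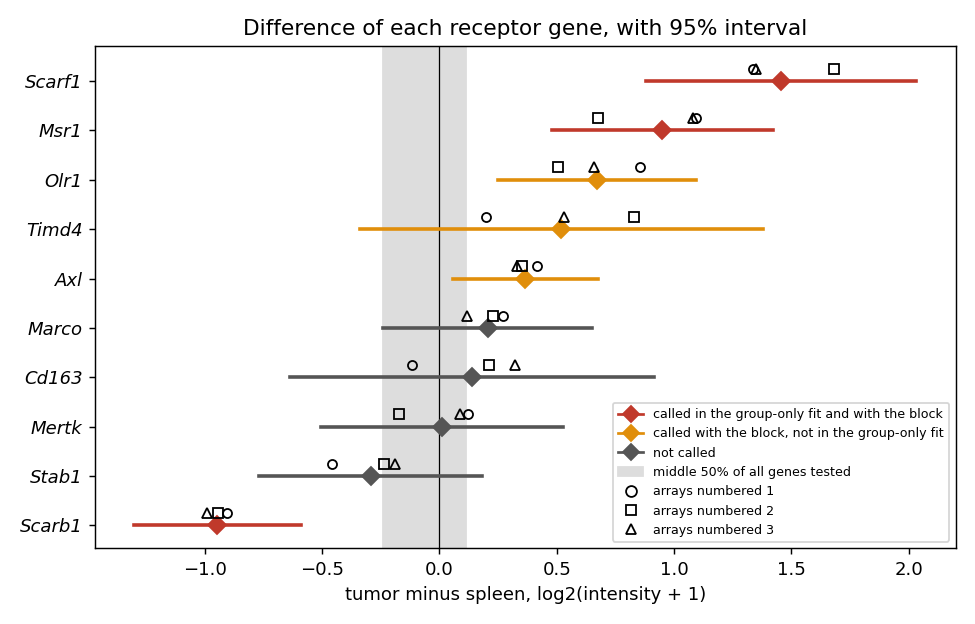
Diamonds give the tumor minus spleen difference of each receptor gene in log2(intensity + 1), bars its 95% interval from limma, and open symbols the difference between the arrays of equal number. The intervals of Scarf1, Msr1 and Olr1 lie wholly to the right and that of Scarb1 wholly to the left of the grey band, which holds the middle 50% of all genes tested (-0.24 to 0.11). Olr1, Axl and Timd4 were called with the block and not in the group-only fit.

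Markers bear on which cells the RNA came from. In the list of 9 monocyte genes 8 were tested, of which 3 rose (Fcgr1, Cd14 and Ly6c2) and 3 fell (Ccr2, Itgam and Csf1r). The calls of Ly6c2 (without spleen 1 or spleen 2, highest adjusted p = 0.0713), Itgam (without spleen 2, tumor 1 or tumor 2, highest adjusted p = 0.0802) and Csf1r (without each array but tumor 3, highest adjusted p = 0.173) did not hold. Itgax, which encodes the CD11c that the sort excluded, had intensities of 2137 to 2516 in spleen and 1143 to 1446 in tumor, and Ccr7, a gene of migrating dendritic cells, 2825 to 3195 and 4308 to 4501. The 95th percentile of all probe sets ran from 619 to 827 over the 6 arrays, below these values. Some other markers were dimmer. The dendritic cell gene Batf3 had intensities of 128 to 187 in spleen and 136 to 209 in tumor, and Cd209a 509 to 726 and 384 to 548. The monocyte gene Ccr2 had 109 to 124 in spleen and 53.3 to 64.2 in tumor. The log2 summed intensity of the dendritic cell list ran from 13.86 to 13.90 in spleen and from 13.78 to 13.86 in tumor. That of the monocyte list ran from 13.92 to 13.97 and from 14.00 to 14.14. Of 12 tissue macrophage genes 11 were tested, 1 rose (Vcam1) and 2 fell (C1qb and C1qc), or 1 and 5 with the replicate block. The log2 summed intensity of that list ran from 12.47 to 12.83 in spleen and from 12.16 to 12.60 in tumor, and Vsig4 and Folr2 lay under the array median on all 6 arrays. Of 10 endothelial genes, which matter because endothelium also makes Stab1, Scarf1 and Olr1, 9 were tested and 1 rose. This was Kdr, a receptor for vascular growth factor, with intensities of 42.0 to 63.0 in spleen and 306 to 499 in tumor. The summed endothelial list ran from 8.24 to 8.52 in spleen and from 9.13 to 9.61 in tumor, but without Kdr from 8.02 to 8.24 and from 7.98 to 8.13; the list's median difference was -0.069. Tek, Tie1, Cldn5, Stab2 and Emcn lay under the array median on all 6 arrays. Dendritic cell genes had 2 of 9 tested higher and 1 lower by limma (2 and 2 with the block). Neutrophil genes had 0 of 10 and 2, fibroblast genes 1 of 8 and 0 (2 and 1 with the block). B cell genes had 0 of 5 and 1, and T and NK cell genes 0 of 5 and 0. Of these calls Mmp9 held with every array left out. Those of Itgax (without tumor 1, adjusted p = 0.0594), Zbtb46 (without spleen 1, spleen 2 or tumor 2, up to 0.0627), Ccr7 (without any 1 array, up to 0.158), Fap (without tumor 1 or any spleen array, up to 0.124), and Cd22 and Mmp8 (without each array but tumor 3, up to 0.146 and 0.142) did not. At an unadjusted p under 0.05, 0 neutrophil, 0 B cell and 0 T and NK cell genes were higher, 0 T and NK cell genes and 0 endothelial genes were lower, and 1 fibroblast gene was lower. The log2 summed intensity of the neutrophil list ran from 11.67 to 11.93 in spleen and from 11.24 to 11.41 in tumor. That of the B cell list ran from 8.72 to 9.23 and from 8.13 to 8.60, with Cd22 at intensities of 358 to 465 and 222 to 284. The sums of the fibroblast list and of the T and NK cell list overlapped between the tissues. The part of these cell types in the receptor differences was not tested.

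The wider machinery of uptake was read from 8 lists of 73 genes, of which 68 were tested. Of these 6 rose and 13 fell, or 27.9%, beside the 10.6% of all genes, and the median difference was -0.19. The replicate block gave 9 higher and 25 lower, or 34 of 68 beside 29.0%. The lists were chosen with earlier results of these data known, so these shares describe the lists and do not test them. The 9 calls that held with each array left out were those of Itgb5, Thbs1, Rac2, Pparg, Rxra, P2ry2, Socs1, Socs3 and Slc40a1.

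Other scavenger receptors had 0 of 12 higher and 1 lower by limma (0 and 3 at an unadjusted p under 0.05), with a median difference of -0.32. Cd93, a lectin-like receptor implicated in the clearance of dying cells, fell by 0.75 ± 0.14 (limma adjusted p = 0.0107), a call that ended when spleen 2 or tumor 1 was left out (highest adjusted p = 0.0658). With the replicate block 5 were lower. They included Cd36, the class B receptor for oxidized lipids and a relative of Scarb1, which had intensities of 1592, 1690 and 2147 in spleen and 1219, 1018 and 1485 in tumor, a difference of -0.55 ± 0.19 (adjusted p = 0.129, or adjusted p = 0.00619 with the block). Lrp1, which works with calreticulin in uptake, stood at -0.62 ± 0.18 (adjusted p = 0.0676, or adjusted p = 0.00364 with the block).

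Other receptors for apoptotic cells went both ways, with 2 of 9 tested higher and 2 lower. Itgav and Itgb5 encode the subunits of an integrin that reads the bridging protein Mfge8, and they parted. Itgav rose by 0.81 ± 0.15 (limma adjusted p = 0.0113) while Itgb5 fell by 1.29 ± 0.21 (adjusted p = 0.00612). Intensities of Itgb5 were 662, 699 and 956 in spleen and 253, 304 and 390 in tumor. The CD300 pair, which binds phosphatidylserine and related lipids, parted too, with Cd300lf at 0.63 ± 0.16 (adjusted p = 0.0376) and Cd300a at -1.01 ± 0.23 (adjusted p = 0.0254). Tyro3, the third TAM kinase, lay between 32.1 and 35.2 on all 6 arrays. The calls of Itgav (without spleen 1, spleen 2 or tumor 1, adjusted p up to 0.0656), Cd300a (without spleen 1, spleen 3, tumor 1 or tumor 2, up to 0.106) and Cd300lf (without any 1 array, up to 0.132) were lost. The mean of its probe sets gave Itgav 0.52 and no call (adjusted p = 0.0502), and the arrays numbered 1 and 2 alone gave none for Cd300a (adjusted p = 0.0530).

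Bridging molecules and ligands had 1 of 8 higher and 2 lower, with a median of -0.39; under the replicate block 1 was higher and 5 were lower. Thbs1, the thrombospondin that links dying cells to CD36 and an integrin, rose by 1.37 ± 0.16 (limma adjusted p = 8.2e-04). Its intensities went from 1059, 1099 and 1349 to 2950, 2863 and 3243. The complement genes C1qc and C1qb, whose product coats dying cells and is a ligand of SCARF1, fell by 0.74 ± 0.15 (adjusted p = 0.0155) and 0.64 ± 0.14 (adjusted p = 0.0245). Gas6, the ligand of Axl, had intensities of 98.3, 92.7 and 84.8 in spleen and 52.6, 57.2 and 73.0 in tumor, with separate groups and a difference of -0.60 ± 0.17 (adjusted p = 0.0609, or adjusted p = 0.0152 with the block). Pros1, which encodes protein S, stood at -0.39 ± 0.22 (adjusted p = 0.393, or adjusted p = 0.0319 with the block), and Mfge8 at 0.26 ± 0.14 (adjusted p = 0.352). Leaving out spleen 1, spleen 2 or tumor 2 ended the call of C1qc (highest adjusted p = 0.0666), and leaving out spleen 1, spleen 2 or tumor 1 that of C1qb (highest adjusted p = 0.132).

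In the engulfment machinery, which turns receptor signals into movement of the membrane, 0 of 10 tested were higher and 3 lower by limma (also at an unadjusted p under 0.05), with a median of -0.15. Rac2, a small GTPase of blood cells that drives actin assembly, fell by 0.97 ± 0.13 (limma adjusted p = 0.00234), from 2998, 3027 and 3194 to 1600, 1543 and 1555. Elmo2 and Dock2, of the Elmo and Dock families that together activate Rac, fell by 0.89 ± 0.17 (adjusted p = 0.0115) and 0.63 ± 0.13 (adjusted p = 0.0207). Rac1, the widely expressed relative, lay between 2231 and 2493 on all 6 arrays, with a difference of -0.036 ± 0.14. The Elmo2 call ended without spleen 2 or tumor 1 (highest adjusted p = 0.0671), and the Dock2 call without spleen 1, spleen 2, tumor 1 or tumor 2 (highest adjusted p = 0.113).

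Genes of lipid sensing and efflux, which handle the cholesterol of engulfed cells and in macrophages also control Mertk and Cd36, had 0 of 8 tested higher and 2 lower by limma, with a median of -0.43. At an unadjusted p under 0.05, and with the replicate block, 0 were higher and 4 lower. Pparg, the lipid-sensing nuclear receptor, had intensities of 302, 326 and 324 in spleen and 93.5, 96.7 and 85.3 in tumor and fell by 1.78 ± 0.14 (limma adjusted p = 9.3e-05). Its partner Rxra fell by 1.26 ± 0.20 (adjusted p = 0.00482). Abca1, a cholesterol exporter, stood at 0.23 ± 0.16 (adjusted p = 0.526) and Abcg1 at -0.25 ± 0.16 (adjusted p = 0.449).

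Signals that attract or hold off the engulfing cell had 1 of 8 higher and 1 lower (2 and 2 with the replicate block), with a median of -0.045. Cd47, the do-not-eat-me ligand, rose by 0.56 ± 0.15 (limma adjusted p = 0.0498). The Cd47 call was lost without each array but spleen 3 (adjusted p up to 0.218). With each gene's probe sets averaged it was lost too (adjusted p = 0.0510), though the Cd47 difference stayed at 0.56. P2ry2, which senses nucleotides released by dying cells, fell by 1.04 ± 0.16 (adjusted p = 0.00395). Adam17, a protease that sheds Mertk from the surface, stood at -0.029 ± 0.17 (adjusted p = 0.975).

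TAM signalling and its inhibitors had 2 of 6 tested higher and 0 lower at the threshold, with a median of 0.24; of the other 4 none reached an unadjusted p under 0.05. With the replicate block 3 were higher, Pik3r1 being the third (adjusted p = 0.0432). Socs1 and Socs3, which block cytokine receptor signalling and are induced by many cytokines besides TAM kinases, rose by 2.78 ± 0.21 (limma adjusted p = 7.2e-05) and 1.32 ± 0.21 (adjusted p = 0.00482). Averaging its probe sets ended the Socs3 call (1.05, adjusted p = 0.0926). Intensities of Socs1 were 84.8, 85.7 and 59.5 in spleen and 557, 612 and 427 in tumor. Haem handling, the path downstream of Cd163, had 0 of 7 tested higher and 2 lower by limma (also at an unadjusted p under 0.05), with a median of -0.19. The iron exporter Slc40a1 fell by 2.18 ± 0.18 (adjusted p = 1.5e-04) and the biliverdin reductase Blvra by 0.75 ± 0.17 (adjusted p = 0.0230), the latter lost without spleen 2, tumor 1 or tumor 2 (adjusted p up to 0.113). Hmox1, the haem-degrading enzyme, stood at -0.27 ± 0.17 (adjusted p = 0.470).

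**Figure D3:**
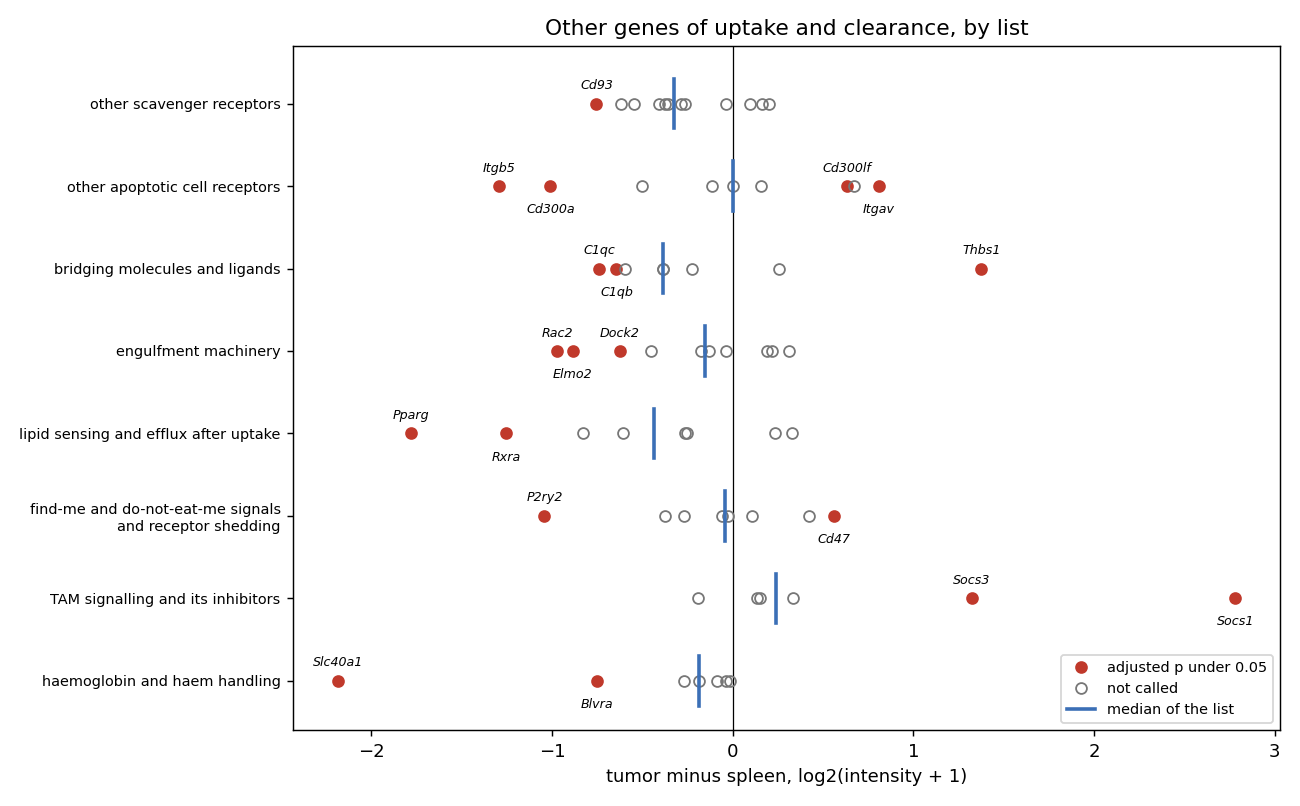
Each circle is 1 tested gene of a list, placed at its tumor minus spleen difference in log2(intensity + 1); filled circles were called at an adjusted p under 0.05 and bars mark the list's median. Called genes lie on both sides in 3 lists, on the lower side in 4 and on the higher side in 1, with Slc40a1 at -2.18 and Socs1 at 2.78 at the ends.

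The genes with the most similar profile to each called receptor were taken by Pearson r over the 6 arrays. Msr1 went with Wdr43, Prpf38b and Pram1, Scarf1 with Rnf31, Itga5 and Plekhn1, and Scarb1 with Parp1, Daglb and Zfp369, and the lowest of these 9 values was 0.9988. An r above 0.95 was common over these 6 arrays in 2 groups, with 762 genes for Msr1, 765 for Scarf1 and 908 for Scarb1. Genes near 0.9988 were not counted. The arrays share group and number, so a high r does not single a gene out.

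**Figure D4:**
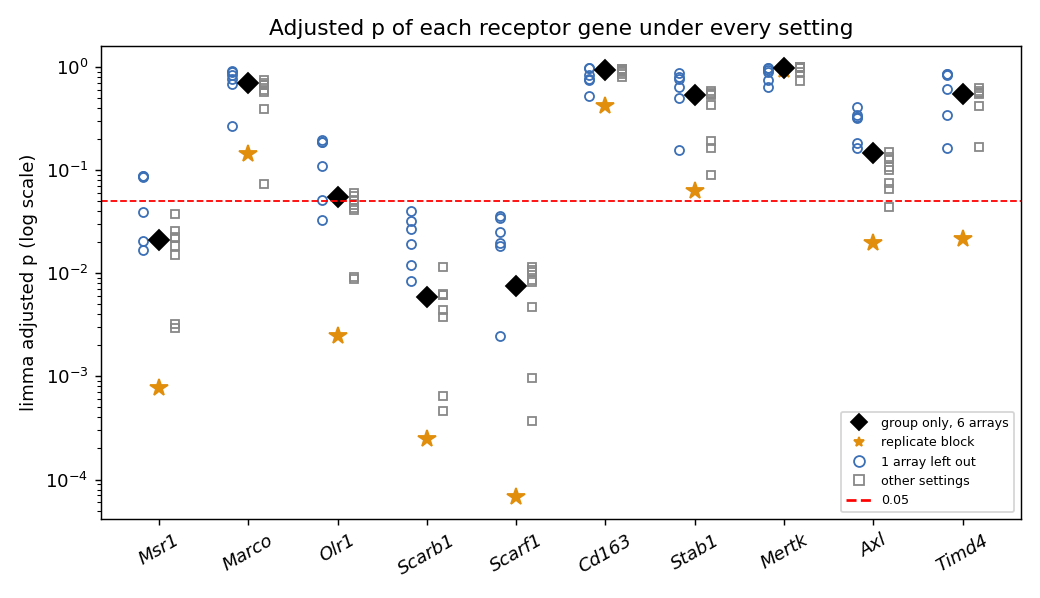
The vertical axis is the limma adjusted p on a log scale for each receptor gene, with black diamonds for the group-only fit, stars for the replicate block, circles for each array left out and squares for other settings. Scarb1 and Scarf1 stay under the dashed line at 0.05 in all 15 alternatives, Msr1 in 12 and Olr1 in 7.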

How the data were processed

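RNA of 3 spleen and 3 tumor samples of sorted monocytes was hybridised to Mouse Gene 2.0 ST arrays. The authors deposited 1 linear intensity per probe set and array, made with RMA per the submitters' processing notes; version, settings and genome build were not given in the sources used here. Array medians ran from 21.6 to 21.8 on numbers 1 and 2 and were 25.6 and 26.0 on number 3, so the arrays do not share 1 distribution. Of 41345 probe sets, 23521 carry 1 gene symbol in the platform annotation, 1814 more than 1, and 16010 have no entry; where a gene had several, the one with the highest mean stood for it.

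Values were used as log2(intensity + 1). The 2 tissues were compared with limma 3.58.1 (R 4.3.3; lmFit and eBayes) in two-sided tests, with Benjamini-Hochberg adjustment over 18458 genes; the fit was tested on simulated data. The receptors and gene lists were chosen with earlier results of these data known. Named were the 10 receptors, the called genes of each list (up to 4 per direction, or the gene of smallest p) and 3 genes similar to each called receptor; others (Cd36, Lrp1, Tyro3, Gas6, Pros1, Mfge8, Rac1, Abca1, Abcg1, Adam17, Hmox1 and the markers) were chosen after their values were seen. Promoter motifs were chosen after the results were known.

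Deviations from the group means of equally numbered arrays correlated across genes at 0.36, 0.44 and 0.71, but spleen 1 with tumor 2 (0.47) and spleen 2 with tumor 1 (0.35) did so too. The numbers come from the sample titles, which do not say what they mean. The second principal component, with 31.6% of the variance, set number 3 apart in both groups. Alternatives were quantile normalization, median centring, a pseudocount of 16, no filter, a 50th percentile filter, the mean of probe sets, a trended and robust prior, the replicate block, arrays 1 and 2 only, and each array left out.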

Additional observations from a re-analysis of the deposited data

How the results depend on the processing

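Over 15 alternatives Scarb1 and Scarf1 kept direction and call, and Msr1, Marco, Olr1, Axl, Timd4 and Stab1 kept their direction. Without single arrays Timd4 ran from 0.17 (without spleen 3) to 0.86 (tumor 3), Marco from 0.082 (tumor 3) to 0.37 (spleen 3) and Stab1 from -0.48 (tumor 3) to -0.16 (spleen 3). Mertk turned sign with quantile normalization (-0.10), on the arrays numbered 1 and 2 (-0.025), and without single arrays, where it ran from -0.19 to 0.18; Cd163 ran from -0.22 to 0.41 without single arrays, below 0 without spleen 3 (-0.22) or tumor 2 (-0.053). Receptors called higher numbered 2, against 4 with a pseudocount of 16, 5 with the replicate block, and 1 to 3 with an array left out. Over all genes, 1057 were higher and 896 lower, or 1096 and 1054 with a pseudocount of 16. Lower calls numbered 1923 with quantile normalization, 1807 with median centring and 1552 on arrays 1 and 2. With the replicate block, which pairs equal numbers, 2153 were higher and 3195 lower. Without single arrays, higher calls ran from 661 to 1240 and lower calls from 294 to 1038. The cause of these shifts was not tested. Low signal limits Cd163 and Timd4, and 3 arrays a group limit every test.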
